A study of Mus musculus with 17 samples.

Results

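Glycolysis enzymes are described here by the transcripts of 10 mouse genes, Hk1, Hk2, Gpi1, Pfkl, Aldoa, Gapdh, Pgk1, Eno1, Pkm and Ldha. They were found by gene symbol among the 54838 Ensembl gene IDs of the count files, and all 10 were measured. The libraries are bulk RNA sequencing of sorted haematopoietic stem cells (HSCs) from C57BL/6 Jrj mice. Old Mito-Q mice (5 libraries) and old control mice (3 libraries) were over 18 months of age. The treated old mice had received Mito-Q, an antioxidant built on ubiquinone and drawn into mitochondria, in 5 daily intraperitoneal doses of 2 mg/kg. Young CCCP mice (5 libraries) and young control mice (4 libraries) were 8 to 12 weeks old, and CCCP, a protonophore that uncouples mitochondrial respiration, was injected once at 0.3 mg/kg. In all groups the sorted cells were live, lineage negative, c-kit and Sca1 positive, CD48 negative and CD150 positive, after enrichment of marrow for c-kit. No label states a vehicle for the controls, the time between the last dose and the sort, or that libraries came from separate mice, so p-values measure the spread between libraries, which may be technical.

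Glycolysis converts glucose to pyruvate in the cytosol and yields ATP without oxygen. Hexokinases trap glucose as glucose 6-phosphate, phosphofructokinase commits it to the pathway, aldolase splits the sugar, and the later enzymes recover ATP and NADH. Lactate dehydrogenase then turns pyruvate into lactate and regenerates NAD. HSCs in the marrow are known for low mitochondrial respiration and a strong reliance on glycolysis, and in mice the hypoxia factor HIF1A and MEIS1 are known to favour that state.

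All 9 markers of the HSC gate and identity were detected in every library. Gene totals ran from 5649611 to 8120443 reads. Young CCCP 3, old control 1 and young control 3 stood apart from the rest, with median Spearman correlations of 0.682, 0.795 and 0.801 with the other libraries, against 0.824 to 0.8595 in the remaining libraries. Young control 3 had reads on 17067 genes, against 27515 to 29725 in the other young controls, and 6.60% of its gene reads were of mitochondrial DNA. In young CCCP 3, 65.5% of reads lay outside genes, and in old control 1 62.4%. Of the 10 enzymes, 9 were at their group's lowest level in young CCCP 3, 8 in young control 3 and 5 in old control 1. Old Mito-Q 3, at a correlation of 0.824, was also lowest of its group for 7 of the 10. How often these libraries were lowest over all genes was not counted. For Hk2, Hk3, Aldoa, Eno1 and Ldha, values are therefore also given without some of young CCCP 3, young control 3 and old control 1. This was not done for every gene. With any 1 library left out, old Mito-Q 3 among them, 0 enzymes were called with Mito-Q in edgeR.

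The enzymes spanned a wide range of levels. Expressed as CPM, the reads of a gene scaled to library size, per kilobase of all annotated exons of a gene (CPM per kb), which allows genes to be set beside each other, the median over the 17 libraries was 432 for Ldha, 291 for Aldoa, 169.9 for Gapdh and 162 for Pkm. Eno1 followed at 66.1, Gpi1 at 39.2 and Pgk1 at 24.6. Hk1 at 13.9 and Pfkl at 13.4, both at steps known to control flux, were close to each other, and Hk2 was lowest at 6.56. Ldha held rank 1 or 2 and Eno1 rank 5 in every library, whereas Hk1 and Pfkl lay between ranks 7 and 10. Per kilobase of the longest coding transcript in place of all exons, the order of the 10 medians was the same, but Hk1 stood at 27.7, close to Pgk1 at 30.2 and Pfkl at 23.9. The 10 transcripts together made up 0.351% to 0.630% of gene reads (as scaled CPM) with Mito-Q, 0.487% to 0.741% in old controls, 0.262% to 0.474% with CCCP and 0.181% to 0.491% in young controls.

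**Figure D1:**
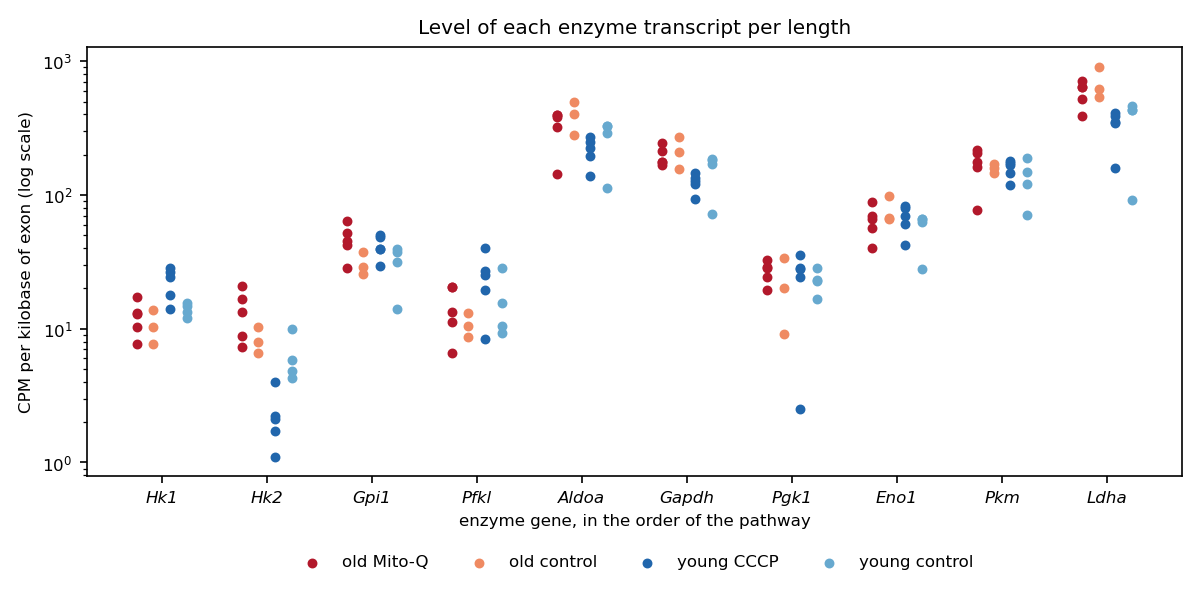
Level of each enzyme transcript in CPM per kb (log axis), with 1 point per library, coloured by group and in pathway order. Ldha, with a median of 432 CPM per kb, and Hk2, with 6.56, mark the ends of the range, and the young CCCP points of Hk2 lie lowest of all groups.

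Hk2 was the enzyme transcript that differed when the 4 groups were tested together, and no enzyme passed the edgeR test in a single comparison. By the edgeR quasi-likelihood F-test with Benjamini-Hochberg adjustment over 24523 genes, Hk2 alone of the 10 enzymes differed among the 4 groups (adjusted p = 0.00152), where 2.7% of all genes were called at an adjusted p below 0.05. Hk1 (adjusted p = 0.0994) and Ldha (adjusted p = 0.1885) came next in edgeR. DESeq2's likelihood ratio test called Hk1 (adjusted p = 0.00733) and Ldha (adjusted p = 0.0429) as well as Hk2 (adjusted p = 2.83e-07), where 8.5% of all genes were called. In single comparisons edgeR called 0 of 10 enzymes in old against young controls (1.69% of all genes were called), 0 of 10 with Mito-Q against old controls (0.542%) and 0 of 10 with CCCP against young controls (0.718%). Without adjustment, 1, 0 and 2 enzymes had p below 0.05 in those 3 comparisons, where 14.2%, 10% and 11.2% of all genes had one, and DESeq2 called 0, 0 and 1 (5.15%, 1.8% and 2.28% of all genes). The median log2 fold change of the enzymes was 0.33 in old against young controls (0.16 over all genes tested), 0.14 with Mito-Q (-0.12 over all genes) and 0.16 with CCCP (0.21 over all genes).

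**Figure D2:**
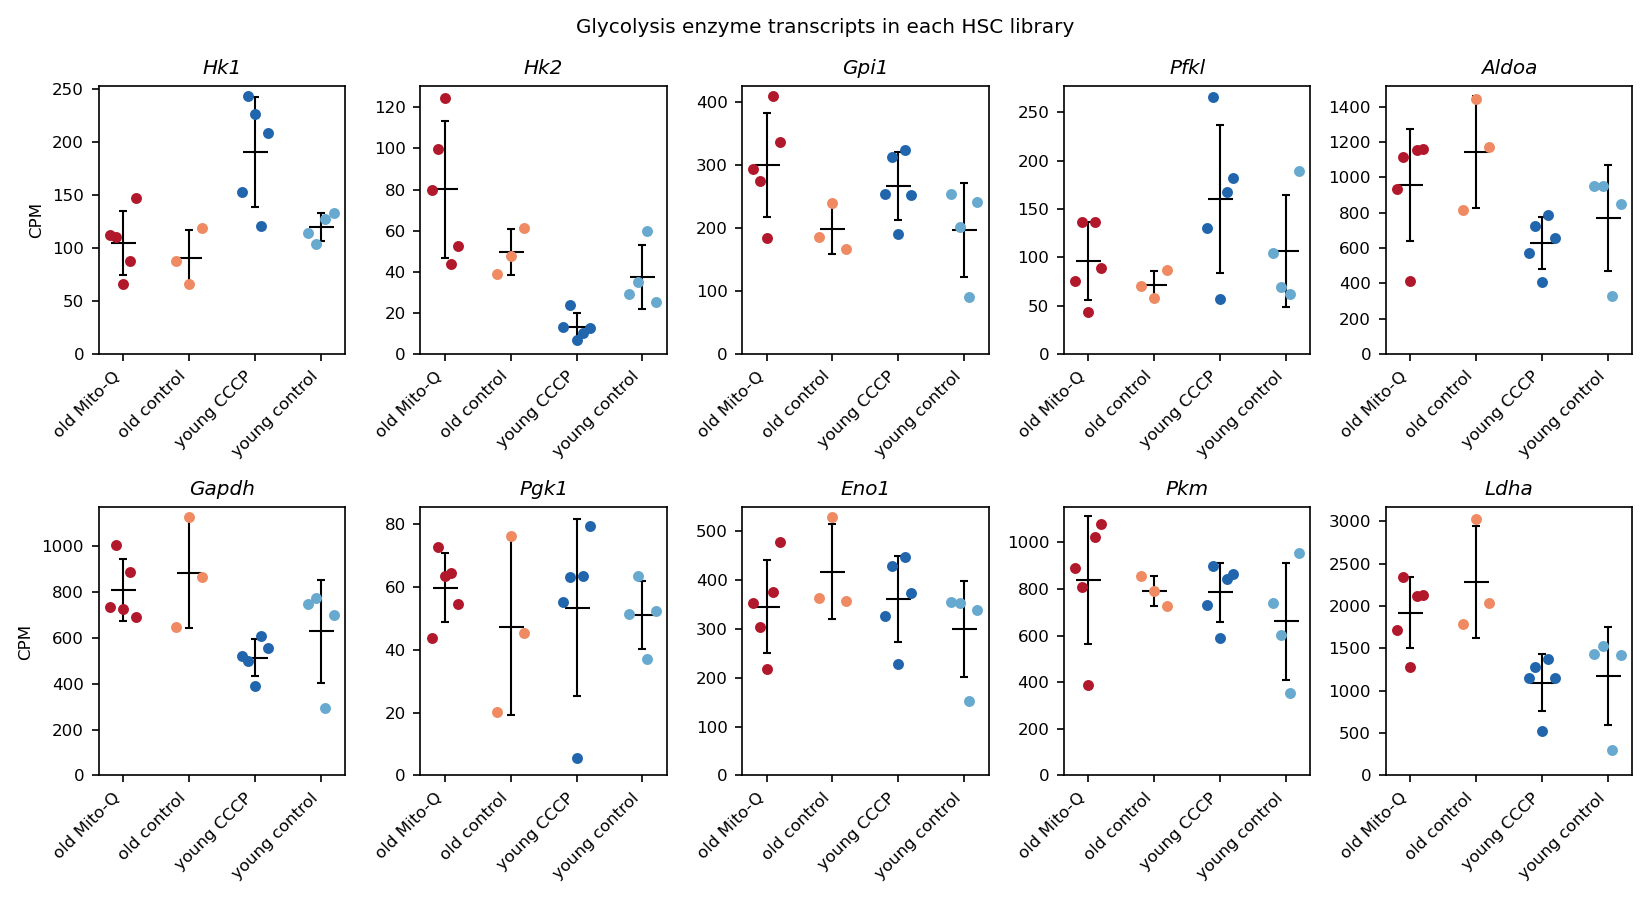
CPM (reads scaled to library size with TMM factors) of each enzyme transcript, with 1 point per library and the mean ± SD of each group in black, on linear axes that start at 0. Young CCCP libraries of Hk2 lie between 6.61 and 23.8 CPM, below every library of the other groups.

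Hk2, an inducible hexokinase that can bind the outer mitochondrial membrane, had the clearest pattern. It measured 79.9, 99.95, 124.5, 43.8 and 52.55 CPM in the 5 old Mito-Q libraries, against 39.1, 47.8 and 61.4 CPM in old controls. It measured 13.2, 23.8, 6.61, 10.2 and 12.6 CPM with CCCP, against 29.0, 35.1, 59.8 and 25.4 CPM in young controls. Group means were 80.1 ± 33.3 CPM with Mito-Q (SD, n = 5), 49.4 ± 11.2 in old controls (n = 3), 13.3 ± 6.42 with CCCP (n = 5) and 37.3 ± 15.5 in young controls (n = 4), so that from high to low they ran Mito-Q, old control, young control and CCCP. Mito-Q and old control libraries overlapped, and so did old and young controls, whereas every CCCP library lay below every young control, a pattern found in 2.89% of all genes in that direction and in 4.67% in either. In the comparison of CCCP with young controls the log2 fold change was -1.48 (SE 0.40, 95% interval -2.30 to -0.67), a 0.358-fold level, with edgeR adjusted p = 0.101 and DESeq2 adjusted p = 0.0145. With young control 3 and young CCCP 3 left out, Hk2 averaged 14.97 ± 6.03 CPM with CCCP (n = 4), against 29.8 ± 4.88 CPM in young controls (n = 3), and the log2 fold change was -0.98 (edgeR adjusted p = 0.539). Without young CCCP 2, the highest CCCP library, it was -1.80 (edgeR adjusted p = 0.0345). The Hk2 log2 fold change was 0.70 with Mito-Q (95% interval -0.20 to 1.60, edgeR adjusted p = 0.638) and 0.41 in old against young controls (95% interval -0.51 to 1.32, edgeR adjusted p = 0.768). Hk2 was measured from between 34 and 778 reads per library.

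Hk1, the hexokinase that most tissues express at a steady level, did not follow Hk2. It measured 152, 243.5, 226, 120.4 and 209 CPM with CCCP, against 114, 103, 127 and 133 CPM in young controls. Of the CCCP libraries, 4 were above all young controls and young CCCP 4 lay among them. Means were 190.2 ± 52.0 CPM with CCCP, against 119 ± 13.3 CPM in young controls, with a log2 fold change of 0.67 (SE 0.29, 95% interval 0.08 to 1.26) that was not called (edgeR adjusted p = 0.388, DESeq2 adjusted p = 0.1404). Hk1 averaged 104.7 ± 30.2 CPM with Mito-Q, against 90.6 ± 26.4 CPM in old controls, with a log2 fold change of 0.21 (edgeR adjusted p = 0.908). In old against young controls its log2 fold change was -0.40 (edgeR adjusted p = 0.661), with overlapping libraries.

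The balance between the hexokinases was compared within each library, per kilobase of exon. The log2 ratio of Hk2 to Hk1 averaged -3.40 ± 0.71 with CCCP (SD, n = 5) and -1.24 ± 0.56 in young controls (n = 4), and the groups did not overlap. The difference of -2.16 had p = 0.00794 in a two-sided exact permutation test, the smallest p that the 126 arrangements allow, and adjusted p = 0.0714 over the 9 isoenzyme ratio tests. The ratio averaged 0.07 ± 0.91 with Mito-Q and -0.34 ± 0.35 in old controls (difference 0.42, adjusted p = 0.698, exact permutation test). It was 0.89 higher in old than in young controls (adjusted p = 0.386, exact permutation test), with overlapping libraries. Without young control 3 and young CCCP 3 the difference with CCCP was -1.65 and the groups still did not overlap. The exact permutation test then gave p = 0.0286, the smallest that the 35 arrangements left allow, and adjusted p = 0.257 over the 9 tests. The length chosen moves all ratios of Hk2 to Hk1 together, by -0.88 per kilobase of the longest coding transcript, and leaves these differences as they are.

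Hk3, a hexokinase known from myeloid cells, completed the set and is described after its values were seen. It measured 50.9, 50.8, 100.7, 56.5 and 45.1 CPM with CCCP, against 15.5, 25.9, 16.97 and 28.96 CPM in young controls, without overlap. The log2 fold change was 1.47 (SE 0.39), with edgeR adjusted p = 0.0947 and DESeq2 adjusted p = 0.00617. Without young control 3 and young CCCP 3 it was 1.12 (edgeR adjusted p = 0.362). As a share of the 3 hexokinase transcripts per kilobase of exon, a share that depends on the lengths used, Hk2 made up 6.53%, 8.605%, 2.01%, 5.51% and 5.455% in the CCCP libraries, against 21.7%, 23.5%, 33.9% and 15.35% in young controls. Hk3 made up 40.2 ± 9.43% with CCCP and 22.7 ± 6.52% in young controls, while Hk1 held 54.2 ± 7.89% and 53.7 ± 5.15%. With Mito-Q, Hk2 held 35.2 ± 14.7% and in old controls 32.4 ± 7.37%. The summed level of the 3 genes was 31.2 to 55.0 CPM per kb with CCCP and 22.45 to 29.5 in young controls, and 36.2 to 40.7 with Mito-Q and 21.3 to 28.9 in old controls, a sum formed after the values were seen and not tested.

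**Figure D3:**
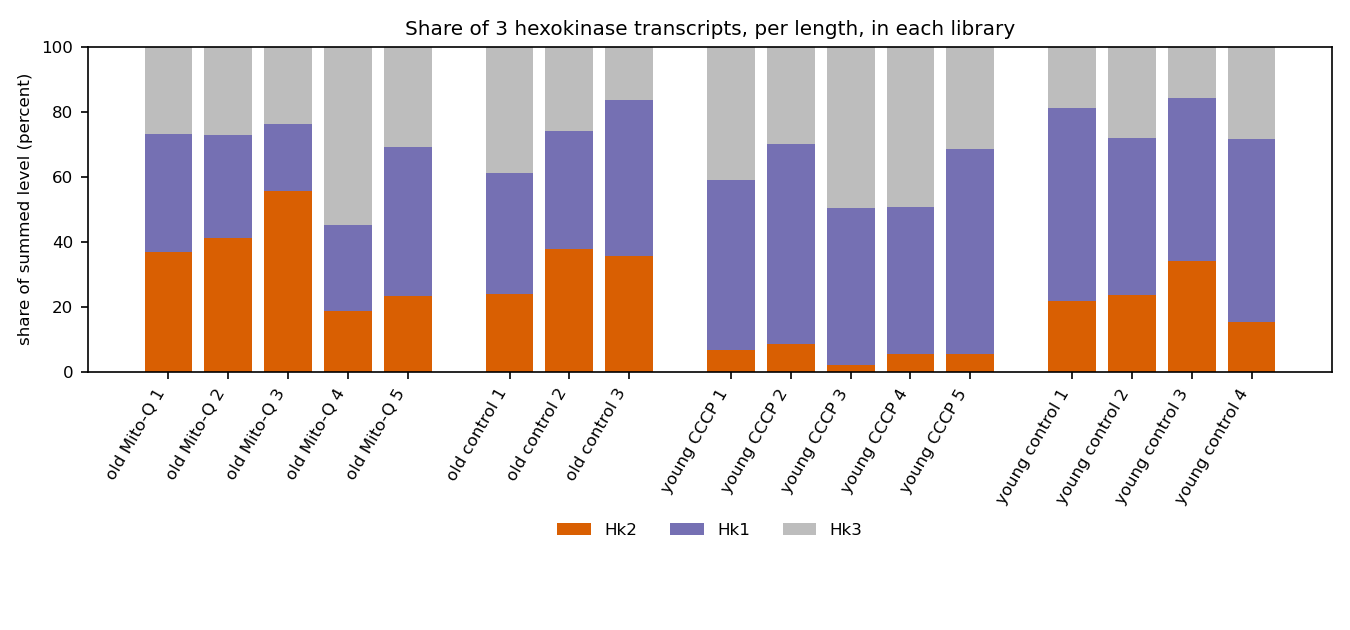
Share of Hk2, Hk1 and Hk3 in the summed CPM per kb of the 3 hexokinases, with 1 stacked bar per library from 0 to 100 percent. Hk2 fills 2.01% to 8.605% of the bar in young CCCP libraries and 15.35% to 33.9% in young controls.

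Markers of other blood cells also differed in these comparisons. The 10 neutrophil markers, all detected in every CCCP and young control library, summed to 760 to 16340 CPM with CCCP (median 9591) and 417 to 2199 CPM in young controls (median 522), with 1 of the 10, Elane, called in edgeR and 7 in DESeq2. They summed to 984 to 14180 CPM with Mito-Q (median 5682) and 1089 to 2348 CPM in old controls (median 2328), with 0 called in edgeR, 5 at an unadjusted p below 0.05 and 4 called in DESeq2. Prtn3 of that list lay the other way, at a median of 634 CPM with Mito-Q, against 1053 CPM in old controls. The 6 erythroid markers summed to 119 to 1173 CPM with CCCP (median 496) and 53.3 to 194.5 CPM in young controls (median 124), with 0 called in either tool and 3 at an unadjusted p below 0.05. Ly6c2, a monocyte marker singled out after its values were seen, averaged 74.2 ± 51.2 CPM with CCCP and 4.91 ± 4.51 CPM in young controls (edgeR adjusted p = 0.165, DESeq2 adjusted p = 0.0120). Vwf, a platelet gene that mouse HSCs can also express, averaged 161.6 ± 47.9 CPM with CCCP and 68.05 ± 8.99 CPM in young controls (edgeR adjusted p = 0.0335). It was the 1 called in edgeR of 5 tested platelet genes, of which 3 had a positive log2 fold change (median 0.12). Pf4 and Ppbp went the other way, at 46.9 and 6.34 CPM with CCCP, against 90.7 and 17.5 CPM in young controls. In young CCCP 2, where the neutrophil markers summed to 760 CPM, Hk3 was at 50.8 CPM and Hk2 at 23.8 CPM, the highest Hk2 value of its group. In young CCCP 4, where they summed to 16340 CPM, Hk3 was at 56.5 CPM and Hk2 at 10.2 CPM. In old Mito-Q 3, where they summed to 9664 CPM, Hk3 was at 32.7 CPM and Hk2 at 124.5 CPM, again the highest Hk2 value of its group. In old Mito-Q 5, at 14180 CPM, Hk3 was at 42.5 CPM and Hk2 at 52.55 CPM. In old Mito-Q 2, at 984 CPM, Hk3 was at 40.5 CPM and Hk2 at 99.95 CPM. These libraries were picked after their values were seen. The part of other cells in the hexokinase values was not tested, and in bulk RNA fewer cells of a type cannot be told apart from less RNA per cell.

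Because Hk2 and Hk1 had fold changes of opposite sign with CCCP, the 250 bases before their annotated transcription starts are shown, from RefSeq (GRCm38.p6), 5′ to 3′ on the strand of the gene. Capitals mark ACGTG or GCGTG on either strand, the core letters of the hypoxia response element. Hk2 lies on the minus strand of chromosome 6 (ENSMUSG00000000628, 82725025 to 82774454). Hk1 lies on the minus strand of chromosome 10 (ENSMUSG00000037012, 62268855 to 62379908) and has an upstream start at the end of that span and a start within it.
Hk2, chr6:82774455-82774704: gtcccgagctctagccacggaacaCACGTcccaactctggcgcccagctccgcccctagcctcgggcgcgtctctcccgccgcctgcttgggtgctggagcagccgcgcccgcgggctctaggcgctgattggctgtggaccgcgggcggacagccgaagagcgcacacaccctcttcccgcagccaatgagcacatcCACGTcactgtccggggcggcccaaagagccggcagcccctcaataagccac
Hk1 upstream start, chr10:62379909-62380158: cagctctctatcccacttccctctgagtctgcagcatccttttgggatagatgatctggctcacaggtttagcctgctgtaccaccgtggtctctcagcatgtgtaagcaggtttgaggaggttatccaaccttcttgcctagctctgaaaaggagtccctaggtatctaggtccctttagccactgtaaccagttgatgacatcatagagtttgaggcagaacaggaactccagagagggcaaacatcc
Hk1 inner start, chr10:62340422-62340671: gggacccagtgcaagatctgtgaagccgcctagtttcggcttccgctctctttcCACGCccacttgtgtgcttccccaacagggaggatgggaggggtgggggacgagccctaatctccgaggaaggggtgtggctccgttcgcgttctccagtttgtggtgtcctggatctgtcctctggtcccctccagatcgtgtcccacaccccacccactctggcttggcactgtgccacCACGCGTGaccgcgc
The Hk2 window held the core at 2 places. The upstream Hk1 window held none, and the inner Hk1 window held 3 matches at 2 places, of which a pair overlapped. Counts per gene do not separate the Hk1 starts. Of 32851 RefSeq windows of the same length, 38.6% held either core. Of the 17 windows of the 10 enzymes, 13 did, with a median GC content of 62.8% against 52.4% over all windows. Some windows of Aldoa and of Eno1 overlap and share their matches, and with overlapping windows joined 11 of 15 stretches held a core. All enzymes but Gpi1 had a match in at least 1 window, and a Ldha window (chr7:46845554-46845803) also held the E-box CACGTG at 2 places, a motif found in 6.02% of windows and overlapping ACGTG on both strands. For that Ldha window and the Eno1 windows, the bases after the start were not found in the opening of a GENCODE M21 transcript of the gene. All these matches are letters only and say nothing of binding.

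Gpi1, Pfkl and Aldoa act between hexokinase and the split of the sugar, and none was called in any comparison. Gpi1 (ENSMUSG00000036427, chromosome 7, 34201330 to 34230336) encodes the isomerase that makes fructose 6-phosphate. It averaged 300.0 ± 82.9 CPM with Mito-Q, against 198 ± 38.3 CPM in old controls, with a log2 fold change of 0.60 (SE 0.33, edgeR adjusted p = 0.559), and 267 ± 53.9 CPM with CCCP, against 197 ± 74.3 CPM in young controls (0.44, edgeR adjusted p = 0.634). Pfkl (ENSMUSG00000020277, chromosome 10, 77986947 to 78010083) encodes the liver-type subunit of phosphofructokinase. It varied most widely within the young groups, at 160.4 ± 76.5 CPM with CCCP, against 106.6 ± 58.4 CPM in young controls, with a log2 fold change of 0.59 (edgeR adjusted p = 0.635). The log2 ratio of Pfkp, the platelet-type subunit, to Pfkl averaged -1.41 ± 0.52 with CCCP and -1.03 ± 0.77 in young controls (adjusted p = 0.698, exact permutation test). Aldoa (ENSMUSG00000030695, chromosome 7, 126795234 to 126800751), which splits fructose 1,6-bisphosphate, averaged 1143 ± 317 CPM in old controls, against 769 ± 298.5 CPM in young controls, with a log2 fold change of 0.57 (SE 0.36, edgeR adjusted p = 0.5155). Without young control 3 the young controls averaged 916 ± 59.0 CPM. With any 1 library left out, the Aldoa log2 fold change for age ran from 0.32 to 0.81. A second ID carries the symbol Aldoa, shares no exon with the first and averaged 1.18 CPM, so it was left out of these values.

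Gapdh, Pgk1, Eno1 and Pkm act in the phase that yields ATP and NADH, and again none was called. Gapdh (ENSMUSG00000057666, chromosome 6, 125161715 to 125166467), often used as a reference transcript, averaged 809 ± 134 CPM with Mito-Q, 882 ± 239.8 CPM in old controls, 515 ± 81.8 CPM with CCCP and 630.1 ± 225 CPM in young controls. The CCCP libraries ran from 388 to 607 CPM, and young controls other than young control 3 from 702 to 773 CPM, while young control 3 was at 295.5 CPM. The Gapdh log2 fold change with CCCP was -0.29 (95% interval -0.85 to 0.26, edgeR adjusted p = 0.752). Pgk1 (ENSMUSG00000062070, chromosome X, 106187100 to 106203699), which makes the first ATP of this phase, was at 5.64 CPM from 29 reads in young CCCP 3 and at 55.1 to 79.5 CPM in the other CCCP libraries. Its group means ranged only from 47.3 ± 28.1 CPM in old controls to 59.8 ± 11.1 CPM with Mito-Q.

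Eno1 (ENSMUSG00000063524, chromosome 4, 150236721 to 150248879), an enolase, measured 364, 529.5 and 358 CPM in old controls, against 355, 353, 152 and 338 CPM in young controls. Every old control exceeded every young control, the closest pair being 358 and 355 CPM. The log2 fold change was 0.48 (SE 0.33, 95% interval -0.20 to 1.15, edgeR adjusted p = 0.564). Young controls averaged 299.5 ± 98.9 CPM, and 349 ± 9.53 CPM without young control 3. With any 1 library left out, the Eno1 log2 fold change for age ran from 0.23 to 0.61. Pkm (ENSMUSG00000032294, chromosome 9, 59656368 to 59679375), the pyruvate kinase gene of most tissues, averaged 838 ± 273 CPM with Mito-Q, 792 ± 63.2 CPM in old controls, 785 ± 126 CPM with CCCP and 661 ± 251 CPM in young controls. Counts per gene do not separate the M1 and M2 forms that splicing makes from Pkm.

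Ldha (ENSMUSG00000063229, chromosome 7, 46841475 to 46855627), the lactate dehydrogenase subunit that favours lactate, had the highest median level of the 10. It measured 1781, 3025 and 2040 CPM in old controls, against 1430, 1527, 303.5 and 1424 CPM in young controls, and the groups did not overlap. Eno1 and Ldha were the 2 enzymes without overlap between old and young controls, both higher, a pattern found in 5.04% of all genes in that direction and in 11.5% in either. With Mito-Q 0 of 10 enzymes were free of overlap with old controls (6.07% of all genes). Means were 2282 ± 656 CPM in old controls, against 1171 ± 580 CPM in young controls, with a log2 fold change of 0.96 (SE 0.40, 95% interval 0.15 to 1.78), edgeR adjusted p = 0.263 and DESeq2 adjusted p = 0.0874. Without young control 3 the young controls averaged 1460 ± 57.8 CPM and the log2 fold change was 0.64 (edgeR adjusted p = 0.376), without old control 2 it was 0.67 (edgeR adjusted p = 0.602), and without old control 1 it was 1.16 (edgeR adjusted p = 0.187). With young control 3, young CCCP 3 and old control 1, the 3 libraries of lowest Spearman correlation, left out together, a choice made after seeing the data, it was 0.82 (edgeR adjusted p = 0.02445), while the median over all genes was -0.40. Mito-Q libraries measured 1720, 2345, 1283, 2118 and 2128 CPM and lay around the old controls (log2 fold change -0.25, 95% interval -1.03 to 0.53, edgeR adjusted p = 0.909). CCCP libraries measured 1149, 1281, 523, 1368 and 1155 CPM, all below the young controls other than young control 3 (log2 fold change -0.10, 95% interval -0.82 to 0.62, edgeR adjusted p = 0.957). The log2 ratio of Ldhb, the other main subunit, to Ldha averaged -1.90 ± 0.53 in old controls and -1.44 ± 0.86 in young controls (adjusted p = 0.698, exact permutation test).

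**Figure D4:**
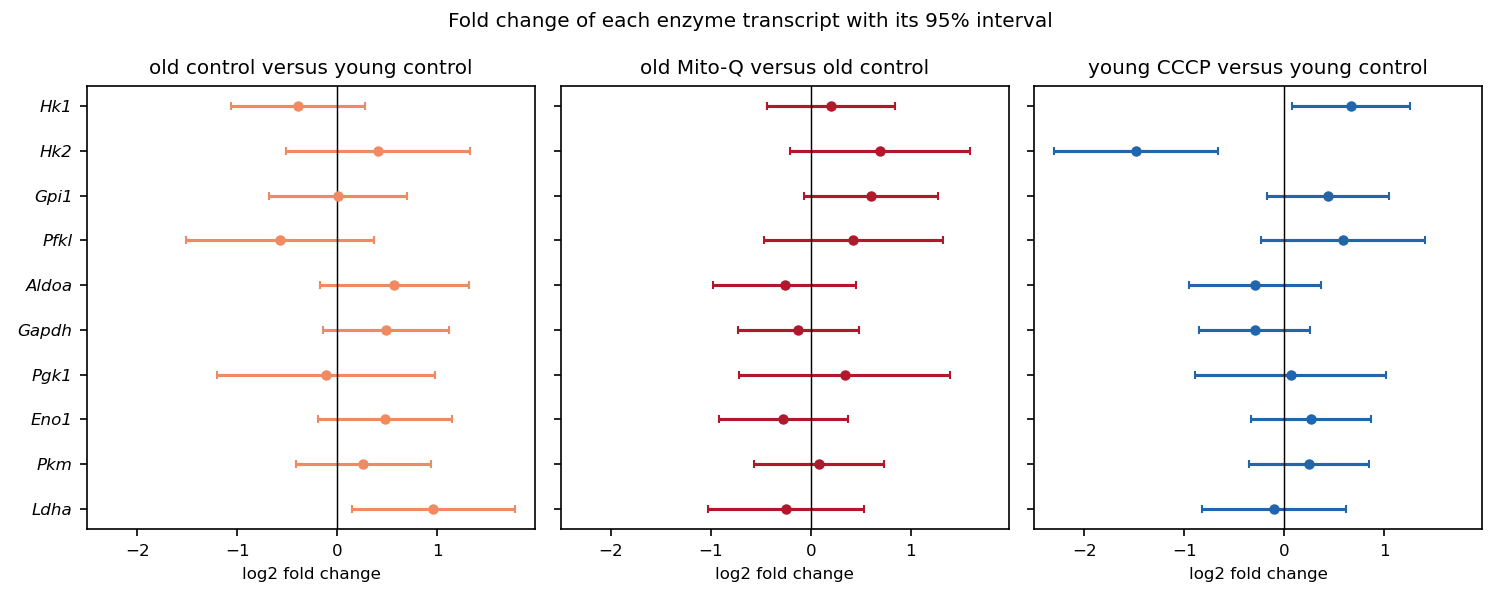
Fitted log2 fold change of each enzyme transcript (points) with its 95% interval (bars) in 3 comparisons, the group named first over the second. The interval leaves out 0 for Hk1 and Hk2 with CCCP and for Ldha in old against young controls, and after adjustment over all genes none was called in edgeR, while DESeq2 called Hk2 with CCCP.

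Cell markers differed with age as well. Of the 9 markers of the HSC gate and identity, edgeR called 0 and DESeq2 5 (5.15% of all genes). At an unadjusted p below 0.05 there were 6 (14.2% of all genes), and 4 of the 9 had a positive log2 fold change. Kit averaged 553 ± 99.6 CPM in old controls, against 1127 ± 324 CPM in young controls. Procr went the other way, at 274 ± 53.5 CPM in old controls, against 102 ± 56.9 CPM in young controls. Cd34 averaged 131.5 ± 22.8 CPM in old controls, against 381.6 ± 69.35 CPM in young controls, and Flt3 10.4 ± 12.0 CPM in old controls, against 101.8 ± 28.1 CPM in young controls, both called lower in edgeR. The sort did not use CD34 or FLT3, so these transcripts can come from cells inside the gate. Called higher were Vwf, at 215.7 ± 54.5 CPM in old controls, against 68.05 ± 8.99 CPM in young controls, and Gp9, another platelet gene, at 84.9 ± 31.6 CPM in old controls, against 28.3 ± 7.49 CPM in young controls. Prtn3, a neutrophil granule protease, was also called higher, at 1015 ± 491.5 CPM in old controls, against 215.6 ± 13.4 CPM in young controls, as was Klrb1c, an NK cell receptor, at 48.0 ± 10.7 CPM in old controls, against 5.87 ± 2.96 CPM in young controls. The neutrophil list was split, with 1 of its 10 markers called and 5 of 10 at a positive log2 fold change (median 0.23). Camp, Ngp, Ltf and Lcn2 of that list averaged lower in old than in young controls. Young control 1 was the highest young control for each, at 153.1, 545.7, 205.1 and 100.4 CPM in turn. By median, Camp was higher in old controls (36.64 CPM, against 15.45 CPM in young controls). So were Ngp (117.8 CPM, against 69.24 CPM) and Lcn2 (21.33 CPM, against 16.86 CPM), while Ltf was lower by median too. The part of the mix of cells in the age values of Ldha, and of Pgls, Hif1a and Arnt described last, was not tested.

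The wells given with the deposited files put all CCCP libraries and young controls 3 and 4 in row C, and all old libraries and young controls 1 and 2 in row A. Within row C the Hk2 log2 fold change with CCCP was -1.68 (edgeR adjusted p = 0.191). That value rests in part on young control 3, which stood apart and had Hk2 at 59.8 CPM. Young control 4 was at 25.4 CPM, next to young CCCP 2 at 23.8 CPM. Over both rows, without young control 3 and young CCCP 3, the Hk2 value was -0.98. Within row A the Ldha log2 fold change in old against young controls was 0.64 (edgeR adjusted p = 0.543). Both within-row values kept the direction of the comparison over all libraries.

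Some enzymes varied together across libraries. Over the 17 libraries, the log2 CPM of Ldha correlated with that of Gapdh (Pearson r = 0.935) and of Aldoa (r = 0.904), and without young control 3 and young CCCP 3 the values were 0.854 and 0.848 over 15 libraries. Hk1 and Hk2 had r = -0.65, and -0.58 over 15 libraries. Hk1 and Pfkl had r = 0.53, and 0.80 over 15 libraries, whereas Eno1 and Gapdh had r = 0.60, and 0.04 over 15. These values describe libraries that share group, depth and scaling factors. The mean of the 10 standardised log2 levels was -1.56 in young control 3, -1.24 in young CCCP 3 and -0.69 in old Mito-Q 3, against -0.23 to 0.62 in the other libraries. Among 8676 protein-coding genes of sufficient level outside the lists, those most like this mean were Slc48a1 (r = 0.968), Sesn1 (r = 0.958), Atp5b (r = 0.956), Epdr1 (r = 0.948) and H2-D1 (r = 0.941) over 17 libraries. Over 15 libraries their r ranged from 0.826 to 0.901.

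**Figure D5:**
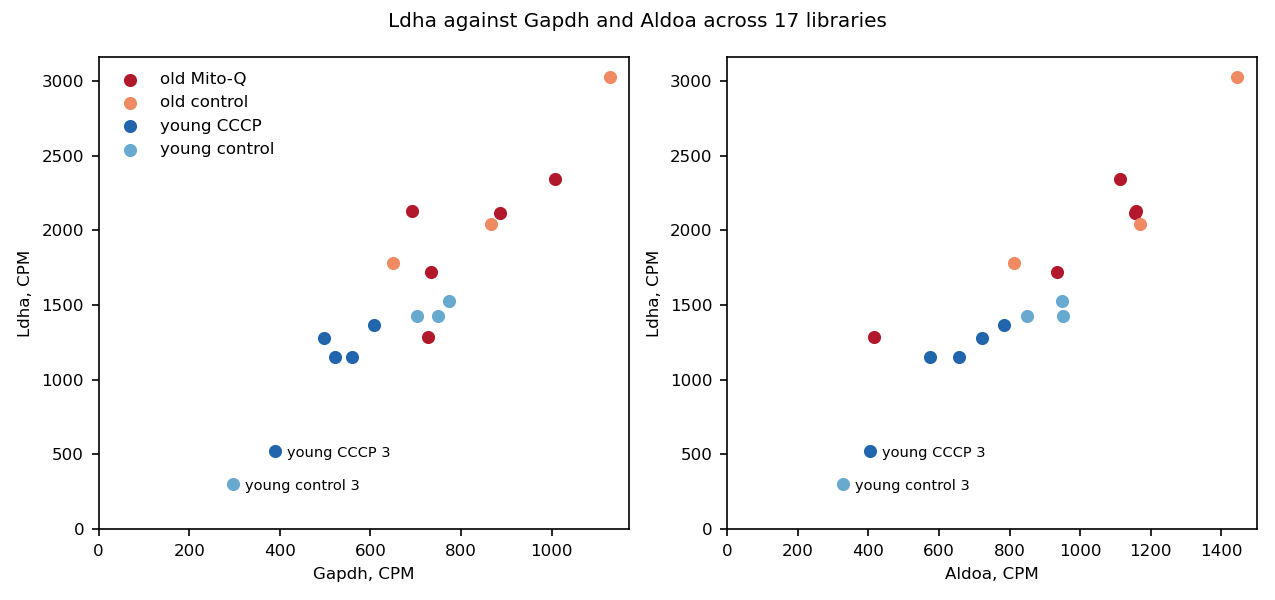
Ldha CPM (vertical axes) against Gapdh CPM (left) and Aldoa CPM (right), with 1 point per library, coloured by group, on linear axes. The points run upward and to the right in both panels, from Ldha at 303.5 CPM in young control 3 to 3025 CPM in old control 2.

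Several enzymes have near-identical copies in the genome, mostly processed pseudogenes, to which reads can be assigned. At 95% identity or more over at least 200 bases, Gapdh had 78 copies, Pgk1 and Ldha 4 each, Eno1 3, Pkm 2 and Gpi1 1, and Hk1, Hk2, Pfkl and Aldoa had none. Reads counted on copies were 9.18% of the joint total for Gapdh, 11.5% for Gpi1, 8.17% for Eno1, 6.02% for Pkm, 5.21% for Pgk1 and 0.902% for Ldha. For Pgk1 in young CCCP 3 the share was 81.2%, against a median of 3.65% over libraries, so its low level there is uncertain. Exons of other genes covered 15.3% of the Pkm exon bases (Gm49759) and 11.5% of those of Gpi1 (Gm26762). Whether the counting used strand was not given in the sources used here.

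Few other genes around the pathway were called, as of all genes (1.69% for age, 0.542% for Mito-Q and 0.718% for CCCP). Calls here are those of edgeR, with the genes at an unadjusted p below 0.05 given for age, Mito-Q and CCCP in turn. Over all genes, 14.2%, 10% and 11.2% had such a p. Of the genes in the 7 lists, DESeq2 called Hk3 with CCCP (2.28% of all genes), and Pgls, Hif1a and Arnt for age (5.15%). Of the 16 tested isoenzymes and further steps, 0 were called in any comparison (2, 1 and 2 unadjusted). Tpi1, triosephosphate isomerase, averaged 532 ± 193 CPM in old controls, against 377 ± 151 CPM in young controls (edgeR adjusted p = 0.586). Ldhb averaged 302 ± 119 CPM in old controls, against 177 ± 40.7 CPM in young controls, with a log2 fold change of 0.77 (edgeR adjusted p = 0.330). Of 8 glucose and lactate transport genes 0 were called (2, 0 and 0 unadjusted). Bsg, the chaperone of lactate transporters, averaged 534 ± 201 CPM in old controls, against 339.6 ± 106 CPM in young controls (edgeR adjusted p = 0.358), and Slc2a3, a glucose transporter, 199.7 ± 38.6 CPM with Mito-Q, against 124 ± 58.3 CPM in old controls (edgeR adjusted p = 0.512).

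Of 8 genes that control flux 0 were called (0, 1 and 1 unadjusted). Txnip, an inhibitor of glucose uptake, averaged 809 ± 141 CPM with Mito-Q, against 692 ± 89.7 CPM in old controls (edgeR adjusted p = 0.912), and its relative Arrdc4 averaged 70.0 ± 22.5 CPM with CCCP, against 41.8 ± 12.2 CPM in young controls (edgeR adjusted p = 0.425). In the pentose phosphate branch, which draws glucose 6-phosphate away to make NADPH and ribose, 1 of 9 genes was called, in old against young controls. Pgls, the lactonase of that branch, measured 119, 247.5 and 314 CPM in old controls, against 76.5, 121, 76.4 and 88.9 CPM in young controls. It rose in old controls (log2 fold change 1.32, SE 0.34, edgeR adjusted p = 0.0444, DESeq2 adjusted p = 0.00206), although old control 1 lay below young control 2. In alternatives tried after seeing the data the call was lost in 17 of 31, with a log2 fold change of 1.00 without old control 3 (edgeR adjusted p = 0.431) and 1.25 without old control 2 (edgeR adjusted p = 0.267). It was also lost without any 1 of young controls 1, 3 and 4, young CCCP 1, 2, 4 and 5, or old Mito-Q 1, 2 and 5 (edgeR adjusted p from 0.0510 to 0.137). With Mito-Q it averaged 145.5 ± 53.6 CPM, against 226.7 ± 99.1 CPM in old controls (edgeR adjusted p = 0.524). Taldo1 averaged 301 ± 91.1 CPM in old controls, against 218 ± 68.6 CPM in young controls (edgeR adjusted p = 0.552), and Tkt, a transketolase, 319 ± 24.2 CPM with CCCP, against 244 ± 75.7 CPM in young controls (edgeR adjusted p = 0.7099).

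In the serine branch 0 of 5 genes were called (0, 0 and 0 unadjusted), and Phgdh, its entry enzyme, averaged 219 ± 71.3 CPM with CCCP, against 245 ± 110.4 CPM in young controls (edgeR adjusted p = 0.921). Shmt2 of that branch averaged 116.7 ± 31.2 CPM with Mito-Q, against 76.6 ± 13.2 CPM in old controls (edgeR adjusted p = 0.759). Of 6 gluconeogenesis genes 0 were called (2, 0 and 1 unadjusted). G6pc3, a glucose 6-phosphatase of most tissues, averaged 145 ± 10.9 CPM in old controls, against 82.2 ± 23.6 CPM in young controls without overlap (edgeR adjusted p = 0.273), and Pck2 108.5 ± 29.4 CPM with CCCP, against 69.9 ± 32.7 CPM in young controls (edgeR adjusted p = 0.574).

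Of 6 regulators 0 were called in a single comparison (2, 2 and 1 unadjusted), and Arnt, the partner of HIF1A, was called among the 4 groups (edgeR adjusted p = 0.0451), a call lost in 18 of 28 alternatives tried after seeing the data (adjusted p from 0.00114 to 0.183). Arnt and Hif1a are singled out after their values were seen. Hif1a measured 22.96, 38.8 and 12.9 CPM in old controls, against 103.7, 104, 105 and 92.7 CPM in young controls, with a log2 fold change of -2.03 (SE 0.56, edgeR adjusted p = 0.0666, DESeq2 adjusted p = 0.0092). Arnt measured 32.6, 8.57 and 21.04 CPM in old controls, against 63.3, 64.3, 53.3 and 70.5 CPM in young controls, with a log2 fold change of -1.60 (edgeR adjusted p = 0.0742, DESeq2 adjusted p = 0.0168). In the same kind of alternatives, the edgeR adjusted p for age was 0.00217 for Hif1a and 0.0368 for Arnt without young CCCP 3, and 0.0337 for Arnt without old control 1. For both, every old control lay below every young control, where 11.5% of all genes were free of overlap in either direction. A link to Ldha, higher in the same old controls, was not tested. Hif1a also lay below every young control with CCCP, at 4.47 to 67.2 CPM, a pattern found in 2.89% of all genes in that direction. With Mito-Q it averaged 57.4 ± 16.3 CPM, against 24.9 ± 13.1 CPM in old controls. Meis1 averaged 439.5 ± 79.9 CPM in old controls, against 593.5 ± 100.4 CPM in young controls (edgeR adjusted p = 0.492), and Myc 375.5 ± 172 CPM with CCCP, against 286 ± 118 CPM in young controls (edgeR adjusted p = 0.7745).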

How the data were processed

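Per the labels, RNA of sorted mouse HSCs was made into Nextera XT libraries at reduced volume. Per the submitters' processing notes, reads were trimmed with Trim Galore and aligned with STAR 2.7 to GRCm38. The deposited values are raw counts of reads, by Ensembl gene, in 17 libraries, and the counting program, annotation and strand setting are not given in the sources used here. Besides 54838 genes, each file held 5 footer entries (reads given to no gene), which stayed out of totals and tests. Names and coordinates came from GENCODE M21 of the same build. No pair of libraries in a group was a duplicate (lowest chi-square per degree of freedom 20.9).

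One edgeR 4.0.16 fit (R 4.3.3) held all libraries, scaled by TMM. The filter was filterByExpr per group at a minimum count of 10, dispersions were robust quasi-likelihood estimates, and no covariate entered. Genes with a two-sided Benjamini-Hochberg adjusted p below 0.05 over the 24523 tested were called. CPM carry TMM factors. All 10 enzymes passed the filter, with at least 29 reads in every library. Isoenzyme ratios used counts per kilobase and exact permutation tests over libraries. Near-identical copies were found with blastn 2.17.0. DESeq2 1.42.0, limma-voom (limma 3.58.1) and other settings served as alternatives. The procedure was tested on simulated data.

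All enzymes are named. Of each further pathway list, called genes and the 2 of highest mean count are named, with others said to be chosen after their values were seen. The enzymes and lists were chosen with earlier results of these data known.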

Additional observations from a re-analysis of the deposited data

Results flagged for a closer look

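Within-group outliers were sought among 39 sets of values by Dixon's 95% criterion, which chance alone meets in about 1 of 20 groups, and 6 values met it. The old controls, with 3 libraries, were not among the sets tested. In young control 3 Aldoa was at 327 CPM, Gapdh at 295.5 CPM, Eno1 at 151.7 CPM and Ldha at 303.5 CPM, each far below the other young controls. In young CCCP 3 Ldha was at 523 CPM, far below the other CCCP libraries, and the log2 ratio of Pfkp to Pfkl was -0.513, far above theirs. These 2 libraries also had the fewest reads on HSC markers in their groups, at 2448 CPM in young control 3 and 1654 CPM in young CCCP 3, and their part in these values was not tested.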

How the results depend on the processing

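Hk2 was called among the 4 groups under every alternative run (adjusted p from 2.83e-07 to 0.00979), while limma-voom and the fits of 2 groups or of 1 well row have no such test here. Without a filter on low counts 2 enzymes differed among the groups and 324 genes were called with CCCP. DESeq2 gave 3 enzymes, 1 enzyme with CCCP, and 1263, 441 and 559 genes for age, Mito-Q and CCCP. With only the 2 groups compared in the fit, 186 genes were called for age and 111 with CCCP, and with young controls of well row A only, 174 for age; row C holds no old library, and the Mito-Q comparison lies wholly within row A. Without young control 3 and young CCCP 3, 1271 and 341 genes were called for age and Mito-Q. With old control 1 also left out, chosen after seeing the data, they were 2520 and 1135, with 1 enzyme (Ldha) called for age and 3 differing among groups. Leaving out 1 library at a time gave 125 to 755 genes for age, 79 to 219 for Mito-Q, and 0 to 1 enzymes with CCCP (129 to 196 genes).

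The replicate numbers do not pair the libraries by the labels, and 5 of 22 same-numbered pairs deviated together with a correlation over 0.1. The median correlation was 0.0318 over same-numbered pairs and 0.00389 over the other pairs of groups. Some pairs of unlike number also passed 0.1, such as young CCCP 5 and old control 2 at 0.203. With the replicate number as a block, 1 enzyme was called for age, Ldha, at a log2 fold change of 1.27 (adjusted p = 0.0352), and 2 differed among the groups; 7 of 17 libraries correlated best with their own number. Under the block, Pfkl and Pkm with Mito-Q (-0.018 and -0.22) and Pgk1 with CCCP (-0.11) changed sign.

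Of 920 alternative values of the 30 enzyme fold changes, 37 changed sign, for 11 fold changes of at most 0.43 in size, none called. These were, for age, Gpi1 (-0.018 unfiltered, -0.016 with copies added, -0.23 and -0.17 without the 2 or 3 libraries above, -0.19 in row A) and Pgk1 (0.015 with upper-quartile factors, 0.15 without the 3 libraries). For Mito-Q they were Pkm (-0.062 with upper-quartile factors, -0.0013 in limma-voom) and Pgk1 (-0.053 without the 3 libraries). With CCCP they were Pgk1 (-0.011 with upper-quartile factors, -0.23 in limma-voom), Ldha (0.0056 with library totals, 0.013 in limma-voom, 0.032 with the share of reads outside genes as covariate, 0.34 in row C), Aldoa (0.089 in row C) and Gapdh (0.037 in row C). Leaving out 1 library gave, for age, -0.24 to 0.15 for Gpi1 and -0.65 to 0.30 for Pgk1. For Mito-Q it gave -0.36 to 0.12 for Gapdh, -0.45 to 0.039 for Ldha, -0.080 to 0.88 for Pgk1 and -0.026 to 0.24 for Pkm. With CCCP it gave -0.42 to 0.081 for Ldha and -0.12 to 0.35 for Pgk1. The log2 ratio of Pfkp to Pfkl ran from -0.33 to 0.36 for age, and that of Ldhb to Ldha from -0.28 to 0.24 for Mito-Q. The cause was not tested. Upper-quartile factors moved the median of all genes from 0.16 to 0.28 for age and from -0.12 to -0.25 for Mito-Q, and library totals moved it from 0.21 to 0.33 with CCCP. Hk2 and Pgk1 rest on as few as 34 and 29 reads in a library, where counting error is widest.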
